A study of Mus musculus with 8 samples.

Results

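Neurofilament subunits and a set of microtubule proteins, 10 genes named by symbol, were followed through single ChC and Pv interneurons of mouse cortex. The genes were the neurofilament light, medium and heavy chains (Nefl, Nefm, Nefh), alpha-internexin (Ina), neuronal beta-tubulin (Tubb3), the microtubule-associated proteins Map1a, Map1b, Map2 and Mapt (tau), and stathmin-2 (Stmn2). They were 10 of 23335 gene names, of which 16531 had any count. The count table held 7 of the 10 under these symbols and the other 3 under the older symbols Mtap1a, Mtap1b and Mtap2. All 10 had counts, from 32 molecules of Nefl to 3382 of Mapt over all cells.

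Neurofilaments are the intermediate filaments of neurons, built as heteropolymers of the light, medium and heavy chains together with alpha-internexin, and they fill large axons and set their caliber. Microtubules run beside them as tracks for transport and are stabilized by tau in axons, by Map2 in dendrites and by Map1a and Map1b in both. Stathmin-2 binds free tubulin and favors microtubule disassembly in growing neurites.

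ChC (chandelier cells, which synapse on the start of the axons of pyramidal neurons) came from Nkx2.1-CreER; Ai14 mice, in which tamoxifen given at E17.5 (150 µl of 20 mg/ml) switched on a red reporter. Pv cells (named by the paper as fast-spiking basket cells, which contact cell bodies) came from Pv-ires-Cre mice bred to Ai14, where Cre follows the Pvalb gene. The paper describes the cell types as partly overlapping and heterogeneous. The labels repeat the tamoxifen dose for the Pv batches but name only the Nkx2.1-CreER mouse in it. The titles of all samples call the mice WT, although they carried these Cre and reporter lines. All 4 mice were female and otherwise untreated, and red cells of the frontal cortex were picked singly, 16 to a library batch. ChC batches 1 and 2 came from animal 1 (postnatal day 31), ChC batches 3 and 4 from animal 2 (day 32), Pv batches 5 and 6 from animal 3 (day 29) and Pv batches 7 and 8 from animal 4 (day 35). Each cell type had its own mouse line and flow cell, and the paper gives tamoxifen for ChC only. Cell type, mouse line, tamoxifen and flow cell therefore cannot be told apart in any comparison below. Age also differed between the 4 animals.

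Molecules were counted by varietal tags (UMI), which are random sequences that mark each molecule. Summed over the rows of each gene, ChC batches 1 to 4 had totals of 527743, 657957, 2898413 and 1307666 UMI, and Pv batches 5 to 8 had 456458, 501563, 370238 and 921212 UMI. Median depth per cell was 39200 UMI for the 63 ChC (range 1053 to 606191) and 27116 UMI for the 63 Pv cells (range 2325 to 108081). Of the 128 cells, 2 had no counts and were left out, and no pair of the 126 others had identical counts. Levels are given in CPM, the UMI of a gene per 1000000 UMI of the batch, after TMM scaling, which removes overall shifts between batches.

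The labels were checked on marker genes. Gad1, the enzyme that makes GABA, averaged 1080.3 ± 574 CPM in ChC and 1279 ± 838 CPM in Pv (SD, n = 4 batches each). Slc32a1, the vesicular GABA transporter, averaged 1924 ± 429.8 and 1882 ± 912 CPM, and Gad2 averaged 569 ± 289 and 186 ± 181 CPM. Pvalb lay at 142, 165, 100.4 and 75.9 CPM in the ChC batches and at 1488, 689, 414 and 1042 CPM in the Pv batches, a gene that the Pv-ires-Cre line itself selects. It had a UMI in 52 of 63 ChC and 63 of 63 Pv cells. All 8 interneuron markers had counts, and their sum was 9009, 9627, 9866 and 9327 CPM in ChC and 8334, 7857, 3857 and 7406 CPM in Pv, lowest in Pv batch 7. Erbb4, the most counted of them, averaged 4018 ± 506 CPM in ChC and 1469.8 ± 287 CPM in Pv, without overlap of batches. Of 5 pyramidal markers, 3 had counts, and their sum, mostly Camk2a, was 34.3, 443, 60.7 and 845 CPM in ChC and 485, 959, 1078 and 151 CPM in Pv, with Neurod6 and Tbr1 at 0. Of 6 markers of handling stress, 5 had counts, and their sum was 1503, 293, 3063 and 2233 CPM in ChC and 436, 559, 13.7 and 173 CPM in Pv, with Atf3 at 0. Fos was the most counted of them, though not in ChC batch 2 (50.1 CPM) or Pv batch 7 (0 CPM). Of 7 markers of other interneurons, 6 had counts, Cck the most, and their sum was 55.8, 123, 292 and 1094 CPM in ChC and 92.3, 467, 201 and 632 CPM in Pv, with Vip at 0. Astrocyte markers (5 of 6 with counts, most Slc1a2, Gfap at 0) summed to between 14.7 and 949 CPM, and oligodendrocyte markers (4 of 6, most Mbp, Mag and Mobp at 0) to between 9.11 and 253 CPM. Microglial (5 of 6, most Aif1, C1qa at 0) and endothelial markers (3 of 4, most Flt1, Cldn5 at 0) reached at most 61 and 18.8 CPM in any batch. The part of these markers in the differences below was not tested, except where a value is given.

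Among the 10 genes, the neurofilament genes and Ina had the largest ratios of mean level between the cell types, at 5.51 (Nefl), 6.57 (Nefm), 6.74 (Ina) and 101 times (Nefh) higher in Pv. These ratios turned on single batches and on how cells were weighted. The ratio of Nefm was 59.1 without ChC batch 2, and with another batch left out it lay between 4.29 and 8.76. Without ChC batch 1 the ChC mean of Nefh was 0. The ratio of Nefl was 9.98 without ChC batch 1, and that of Ina was 10.2 without ChC batch 2 and 4.47 without Pv batch 5. With the mean over cells in place of the sum of molecules, the ratio of Ina was 1.42, from 17.7 CPM in ChC and 25 CPM in Pv. That ChC value came mostly from batch 2, at 63.8 CPM from 5 molecules in 4 cells. Batches 1, 3 and 4 were at 0, 0.281 and 6.51 CPM by the same measure. Nefh, the heavy chain with the long side arm, was at 4.29, 0, 0 and 0 CPM in ChC batches 1 to 4 and at 50.8, 62.8, 115 and 206 CPM in Pv batches 5 to 8. Every Pv batch lay above every ChC batch, and both batches of animal 4 lay above both of animal 3. The ChC values rest on 2 molecules, 1 each in 2 cells of batch 1, against 303 molecules in Pv. Without TMM scaling, a count of 0 allows up to 4.56, 1.04 and 2.29 CPM in ChC batches 2, 3 and 4. Batch 3, the deepest, thus gave the tightest limit. Over summed UMI, where the deep ChC batch 3 has more weight, Nefh was 363 times higher in Pv (95% exact interval 99.7 to 3012, counting error only). Per animal it stood at 1.69 and 0 CPM in ChC and at 54.3 and 194 CPM in Pv, without scaling.

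Nefm, the medium chain, was at 0, 37.9, 1.89 and 1.56 CPM in ChC and at 0, 124, 9.76 and 139 CPM in Pv. The groups overlapped, since Pv batch 5 held no molecule of Nefm and ChC batch 2 held 25. The batches of one animal could differ more than the cell types. In animal 3, batch 6 held 59 molecules beside the 0 of batch 5, and in animal 4, batch 8 was 14.2-fold above batch 7. The means were 10.3 ± 18.4 CPM in ChC and 68 ± 73.2 CPM in Pv (SD, n = 4 each), a difference smaller than the SD of the Pv batches.

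Nefl, the light chain on which the other subunits assemble, was at 4.29, 3.04, 0 and 0 CPM in ChC and at 2.31, 4.19, 15.6 and 18.3 CPM in Pv. The animal 4 batches were high, while both batches of animal 3 lay below ChC batch 1, though batch 6 did not without TMM scaling (3.99 against 3.79 CPM). With 4 molecules in ChC and 28 in Pv, the ratio of summed UMI was 16.8 (95% exact interval 5.87 to 65.8, counting error only), and animal 4 held 25 of the 28. Ina, which co-assembles with the triplet, was at 0, 7.59, 0.377 and 7.04 CPM in ChC and at 50.8, 6.28, 21.5 and 22.6 CPM in Pv. Pv batch 6 fell below ChC batches 2 and 4, and the other Pv batches were above all ChC batches. Summed per animal and without scaling, Ina was at 4.22 and 2.38 CPM in ChC and at 26.1 and 24.8 CPM in Pv, and Nefm was at 21.1 and 1.66 CPM in ChC and at 61.6 and 104 CPM in Pv. Neither gene overlapped by animal, as was so for Nefh, Map1b and, with ChC above Pv, Map2. Ina and Nefh were above the count filter in the Pv animals alone, which largely fixed their order. Both Pv animals lay above both ChC animals for 1799 of 9829 genes (18.3%), and both ChC animals above both Pv animals for 1706 (17.4%).

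**Figure D1:**
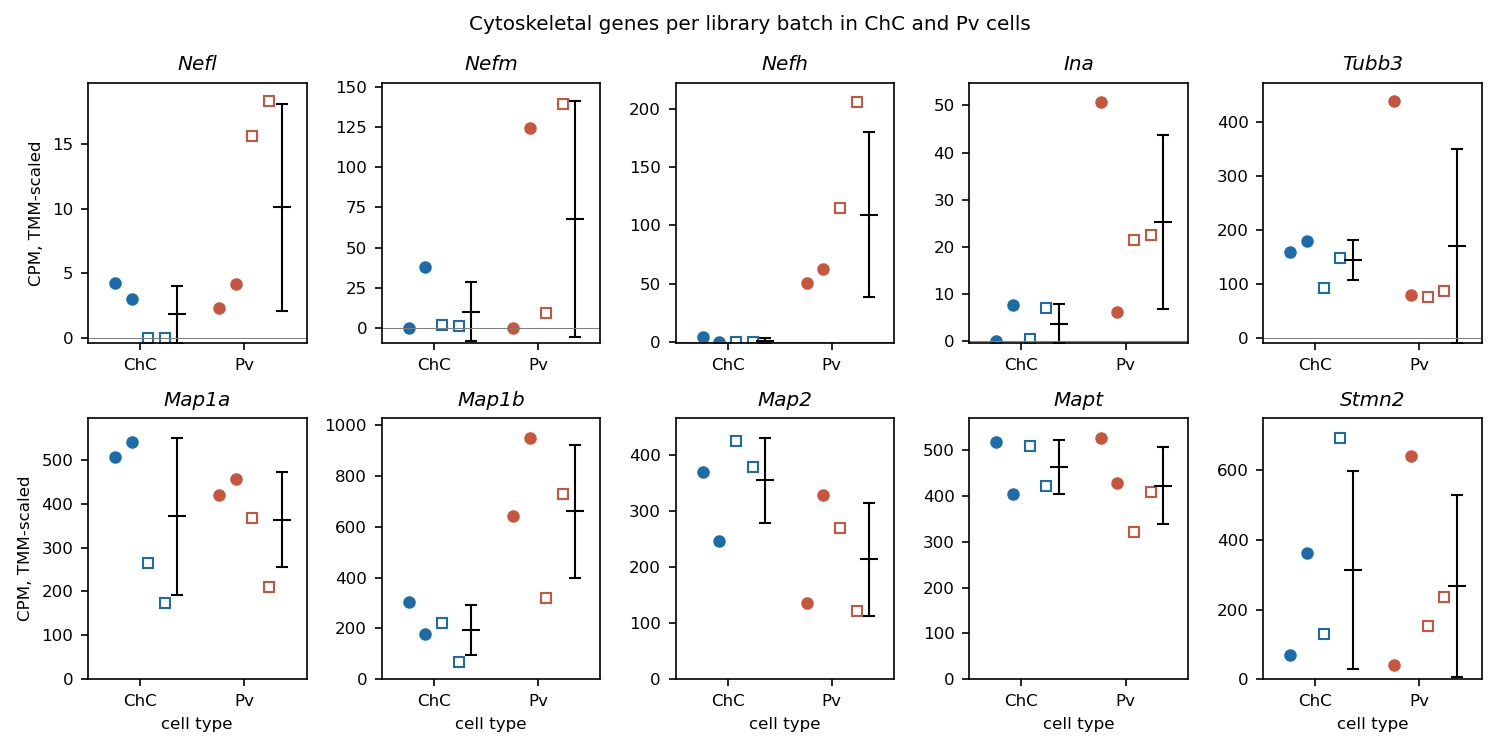
Level of each gene (y axis, CPM after TMM scaling, linear) in the 4 ChC (blue) and 4 Pv (red) library batches, with filled circles for the batches of animals 1 and 3, open squares for those of animals 2 and 4, and a bar for the mean ± SD of 4 batches. Nefh and Map1b are the genes in which all Pv batches lie above all ChC batches (Nefh from 50.8 against at most 4.29 CPM, Map1b from 318 against at most 305 CPM).

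With animals as samples (2 against 2), edgeR's quasi-likelihood test called 0 of the 9 members it could test, against 0% of all 9829 genes tested. At an unadjusted p under 0.05 it had 616 genes, while DESeq2 called 150 of 9829 (1.53%), edgeR without the filter on low counts called 80 of 16531 (0.484%) and edgeR on batches called 5 of 6481 (0.0771%). Nefl did not pass the filter, and Nefh and Ina passed it through the Pv animals alone, so both had to differ to be tested and their fold changes and p values are descriptions that support no difference. In edgeR, Map1b was under an unadjusted p of 0.05 and lower in ChC, as were 261 of all genes (2.66%), among them Nefh. The fitted log2 fold change of Nefh (ChC over Pv) was -7.40 (SE 2.00), with an adjusted p of 0.598 in edgeR. This fold change was -10.71 without ChC batch 1 and ranged from -10.99 to -5.95 over all alternatives. DESeq2 gave Nefh an adjusted p of 0.00073 and edgeR without the filter 0.0301, within a range of 0.00073 to 0.935 over all alternatives. Nefm (-2.78, SE 1.51, adjusted p = 0.881 in edgeR) and Ina (-2.90, SE 1.46, adjusted p = 0.854 in edgeR) did not pass the test, and no alternative that could test them called either gene. The fold change of Nefm was -6.04 without ChC batch 2 and -1.74 without Pv batch 8, and that of Ina ranged from -3.95 to -2.08.

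By batches, Nefh and Map1b had all Pv values above all ChC values. This was so for 93 of the 6481 genes that passed the filter on batches (1.43%), and 218 genes (3.36%) had all ChC batches above all Pv batches, none of them a member. Nefh reached the counts of this filter in Pv alone, so it had to differ and is no support beside that share. Among the 218 genes were Egr1 (45, 199, 268 and 279 CPM in ChC and 0, 0, 9.76 and 1.07 CPM in Pv) and Junb. These genes, induced by stress and activity, were named after their values were seen. Both reached the counts of this filter in ChC alone, so they too had to differ. Their part in the differences of Nefh and Map1b was not tested.

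Single cells were compared after each was thinned to 10000 UMI, which 49 ChC and 59 Pv cells reached. Nefh was found in 0 of 49 ChC cells, which allows up to 6.12% of cells with a molecule at this depth (3 counts, exact interval 0 to 7.25) and sets no limit on cells that express the gene. It was found in 40 of 59 Pv cells (67.8%, 95% exact interval 54.4 to 79.4). Within Pv it was in 7 of 15, 5 of 13, 14 of 15 and 14 of 16 thinned cells of batches 5 to 8. Cells of animal 4 held it more often than cells of animal 3. Without thinning, Nefh was in 2 of 63 ChC cells (3.17%) and 48 of 63 Pv cells (76.2%), with at most 30 molecules in a cell.

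Nefm was found in 5 of 49 thinned ChC cells (10.2%, interval 3.40 to 22.2) and in 24 of 59 Pv cells (40.7%, interval 28.1 to 54.3). Of the 24, 9 were in batch 6 and 12 in batch 8, the batches where its level was also high. Ina was in 3 ChC (6.12%) and 15 Pv cells (25.4%), and Nefl in 1 ChC (2.04%) and 4 Pv cells (6.78%). Unthinned, Nefm was in 14 ChC and 31 Pv cells of 63 each, Ina in 11 and 31, and Nefl in 4 and 18. Genes of other cell types gave a measure of stray RNA. Mbp, a myelin gene, was in 42.9% of thinned ChC and 33.9% of thinned Pv cells, and Slc17a7, a pyramidal gene, in 22.4% and 33.9%. Nefl and Ina in either cell type and Nefm in ChC were below both genes. Nefh and Nefm in Pv were above both, though the interval of Nefm held the shares of both genes. No thinned share was taken for the pyramidal marker Camk2a. Unthinned, Camk2a was in 61 of 63 Pv cells, more than Nefh (48) or Nefm (31). Nefh and Nefm are thus not shown to lie above all stray RNA. The shares of the stray genes differed by batch. Mbp was in 0, 0, 11 and 9 thinned cells of Pv batches 5 to 8, and Slc17a7 in 2, 0, 15 and 3. In Pv batch 6, where neither was found, Nefm was in 9 of 13 cells, but other markers were at their highest there, Camk2a at 959 CPM and the oligodendrocyte marker Cnp at 251 CPM, so the batch is not shown to be free of stray RNA. In Pv batch 5, Ina was in 7 of 15 cells. In Pv batch 7, where Slc17a7 was in all 15 cells, Nefh was in 14, Nefm in 3 and Ina and Nefl in 2 each. The part of stray RNA in the shares of the filament genes was not tested. In ChC batch 2 Nefm and Slc17a7 were each in 4 of 10 cells.

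**Figure D2:**
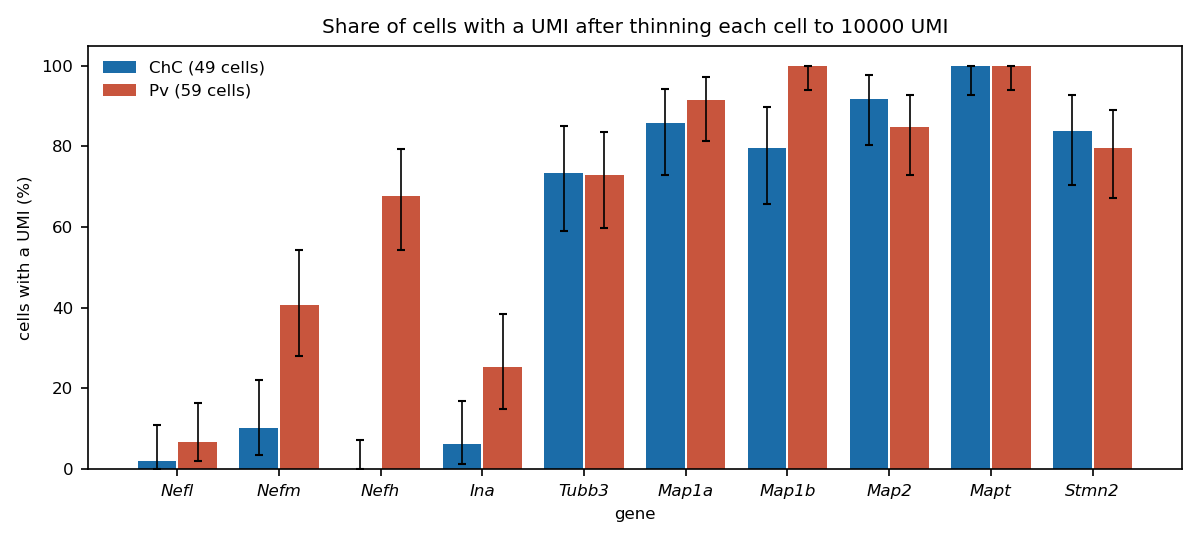
Share of cells with at least 1 UMI of each gene (y axis, percent) after each cell was thinned to 10000 UMI, in 49 ChC (blue) and 59 Pv cells (red), with 95% exact binomial intervals that cover counting error only. The intervals of ChC and Pv lie apart for Nefh (0% and 67.8%), Nefm (10.2% and 40.7%) and Map1b (79.6% and 100%) at this depth. They overlap for the other genes, among them Nefl and Ina. Thinned to 5000 UMI, those of Nefm overlap. Unthinned, those of Map1b overlap and those of Nefl and Ina lie apart. The cells come from 2 animals per cell type, so the intervals hold no spread between animals and do not test the cell types.

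The triplet was seldom complete in a cell. All 3 of Nefl, Nefm and Nefh were found in 12 of 63 Pv cells and 0 of 63 ChC cells without thinning, and none of the 3 in 11 Pv and 45 ChC cells. In Pv, 28 of the 31 cells with Nefm also held Nefh, while the 14 ChC cells with Nefm held no Nefh. Because Nefh also marks some pyramidal neurons, its share was taken in cells without any UMI of Slc17a7 and Neurod2, a choice made after the data were seen. Nefh was in 21 of 35 such Pv cells (60%, median 26626 UMI a cell) and in 2 of 40 such ChC cells (median 31586 UMI). Neurod2 was in no Pv cell, so in Pv the split is by Slc17a7 alone. Camk2a, most of the pyramidal sum, was left out of it because it was in 61 of 63 Pv and 49 of 63 ChC cells, and the cells without the other markers are therefore not shown to lack pyramidal RNA. In the cells that did hold Slc17a7 or Neurod2, Nefh was in 27 of 28 Pv cells (median 33153 UMI) and 0 of 23 ChC cells (median 60237 UMI). In Pv the split is nearly one by animal, since 28 of the 35 cells without these markers came from animal 3 and 25 of the 28 others from animal 4. Within animal 3, Nefh was in 15 of 28 cells without and in 3 of 3 cells with a marker, and within animal 4 in 6 of 7 and 24 of 25. Slc17a7 was at 6.92, 0, 215 and 22.6 CPM in Pv batches 5 to 8, so both it and Nefh were higher in animal 4. The other filament genes were split in the same way. In ChC, Nefm was in 9 of 23 cells with and 5 of 40 without a marker. Ina was in 8 and 3 of these cells and Nefl in 2 and 2. In animal 1 Nefm was in 8 of 10 and 1 of 22 cells (median 55626 and 10358 UMI). In animal 2 it was in 1 of 13 and 4 of 18. In Pv, Nefm was in 14 of 28 and 17 of 35 cells, Ina in 17 and 14 and Nefl in 13 and 5. The part of pyramidal RNA in the levels of the filament genes was not tested beyond these counts.

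The low counts of Nefl and Ina were set beside their annotated 3′ ends, since reads were primed at the poly(A) tail. On mm9, the transcript of Nefl in the count table (chr14:68701941-68705794, plus strand) ended 1358 bases before the GENCODE end of the gene at 68707152. Ina (chr19:47089188-47098836, plus strand) ended 981 bases before its GENCODE end at 47099817. Nefm (chr14:68737602-68743061, minus strand) ended 262 bases before, and Nefh (chr11:4838759-4848067, minus strand) 2 bases before. The other 6 members ended within 5 bases of GENCODE. A GENCODE end at least 500 bases beyond the table, a limit chosen after the values were seen, was found for 1618 of 19926 matched genes (8.12%). The last 50 bases of each transcript were searched on its own strand for the polyadenylation hexamers AATAAA and ATTAAA, of which 55.1% and 15.9% of 26208 transcripts held one, and 68% held either. Nefl and Ina held neither at the table's end and the other 8 members did, with ATTAAA in Map1a and AATAAA in the rest. At the GENCODE end Nefl had AATAAA and Ina ATTAAA. The stretches of 30 bases are shown for the filament genes so that both annotated ends of Nefl and Ina can be read beside the table's ends of Nefm and Nefh, with the hexamer in capitals. The hexamer at the GENCODE end of Nefl starts 31 bases from that end, so its stretch stops 5 bases short of it.
Nefl, table end, chr14:68705765-68705794: gaatcacacagatgtttacaataataataa
Nefl, near the GENCODE end, chr14:68707118-68707147: ccatAATAAAatattgaaaaaaaatctaaa
Ina, table end, chr19:47098807-47098836: tttcatgtcctttcacatctgtagctttaa
Ina, GENCODE end, chr19:47099788-47099817: aatctaagaaATTAAAagtcattaatccta
Nefm, table end, chr14:68737602-68737631: tgctcAATAAAggtcatactggaaacataa
Nefh, table end, chr11:4838759-4838788: atgcAATAAAaccaagtgcttctgaaataa
Nefl and Ina, with 32 and 72 molecules, were thus both the least counted members and those without a hexamer at the end that was counted to. Over all genes the 841 with both features (4.22%) had a median of 62 UMI against 52 for the rest, which says nothing of any one gene. Whether molecules of Nefl and Ina were missed for this reason was not tested, and their levels hold only for the end in the table. GENCODE also lists a putative Nefm transcript that runs over Nefl on the other strand (chr14:68700647-68742903). Whether tags were counted by strand is not given in the sources used here, so reads of Nefl and of such a transcript could not be separated.

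Among the microtubule-associated proteins, Map1b differed most. Map1b, a protein of growing axons that persists in some adult neurons, was at 305, 178, 222 and 68.8 CPM in ChC and at 644, 951, 318 and 731 CPM in Pv. All Pv batches lay above all ChC batches, with the smallest gap between Pv batch 7 and ChC batch 1, which were at 440.3 and 269 CPM without TMM scaling. The means were 193 ± 98.2 and 661 ± 262 CPM (SD, n = 4 each), 3.42-fold higher in Pv. In edgeR its log2 fold change (ChC over Pv) was -1.85 (SE 0.60) with an adjusted p of 0.673, which ranged from 0.247 to 0.999 over all alternatives. Map1b was found in 59 of 59 thinned Pv cells, with a mean of 7.20 molecules, and in 39 of 49 thinned ChC cells (79.6%, 95% exact interval 65.7 to 89.8), with a mean of 1.86.

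Map2, which binds dendritic microtubules, leaned the other way. It was at 369, 247, 425 and 379 CPM in ChC and at 136, 329, 269.5 and 122 CPM in Pv. Pv batches 6 and 7 lay above ChC batch 2, so the groups overlapped, and Pv batches 5 and 8 were the lowest of the 8. Summed per animal and without scaling, Map2 was at 283 and 383 CPM in ChC and at 225 and 195 CPM in Pv, without overlap. The means were 355 ± 75.7 and 214 ± 101 CPM, and edgeR gave a log2 fold change of 0.70 (SE 0.66) with an adjusted p of 0.984. Map2 was in 91.8% of thinned ChC and 84.7% of thinned Pv cells.

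Mapt, the gene of tau, was the most even of the 10 over the batches. It was at 519, 404, 510.4 and 422 CPM in ChC and at 528, 429, 322 and 410.2 CPM in Pv. The groups lay in the same range, and its highest batch was 1.64-fold above its lowest, against 17.7-fold for Stmn2 and 13.8-fold for Map1b. Mapt was found in all 49 thinned ChC and all 59 thinned Pv cells, with means of 4.16 and 4.56 molecules. Its log2 fold change in edgeR was 0.05 (SE 0.57, adjusted p = 0.999).

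Map1a, a protein of mature axons and dendrites, has 2 transcript rows with identical counts in every cell, so that summing them counts each molecule more than once. The summed level was 506, 540.3, 265 and 174 CPM in ChC and 419.9, 457, 367 and 210.5 CPM in Pv, with animal 2 lower than animal 1 and the groups overlapping. From a single row per gene the means were 217 CPM in ChC and 212 CPM in Pv. The log2 fold change in edgeR was 0.06 (SE 0.69, adjusted p = 0.999), and its sign turned in 5 of 18 alternatives.

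Tubb3, the beta-tubulin of neurons, was at 159, 179, 93.2 and 149 CPM in ChC and at 438, 79.6, 76.2 and 88.1 CPM in Pv. Pv batch 5 stood alone at the top, and with TMM scaling the 3 other Pv batches lay below all ChC batches. Without it, Pv batch 7 and Pv batch 8 (89 CPM) lay above ChC batch 3 (85.2 CPM). Batch 5 held 190 molecules of Tubb3 and batch 6 of the same animal 38, a 5.51-fold difference in level. The log2 fold change was -0.31 (SE 0.88, adjusted p = 0.999 in edgeR), and without batch 5 it was 0.72. The share of thinned cells with Tubb3 was 73.5% in ChC and 72.9% in Pv.

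Stmn2 varied more between batches than between cell types. It was at 68.6, 363, 129 and 694 CPM in ChC and at 39.2, 641, 152 and 236 CPM in Pv. In animals 1 to 3 one batch was well above the other, by 5.29-, 5.39- and 16.3-fold, and the high batches were 2, 4 and 6. In animal 4, batch 8 was 1.55-fold above batch 7 with TMM scaling, but 1.13-fold without it, with an exact interval of 0.872 to 1.49. Tuba1a, the most counted tubulin, was also higher in batches 2, 4, 6 and 8 of their animals, at 1471, 2279.5, 873, 1832, 593, 1943, 516 and 1501 CPM in batches 1 to 8. The cause was not tested. The means of Stmn2 were 313 ± 284 CPM in ChC and 267 ± 262 CPM in Pv (SD, n = 4 each), and edgeR gave a log2 fold change of -0.10 (SE 0.67, adjusted p = 0.999), whose sign turned in 7 of 18 alternatives.

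Per kilobase of spliced length, with 1 row per gene, no TMM scaling and the mean of 8 batches, the order of levels was Stmn2 (178 CPM per kb), Mapt (97.8), Tubb3 (96.7), Map2 (53.1), Map1b (42), Map1a (18.3), Nefh (17.4), Nefm (13.6), Ina (5.46) and Nefl (2.29). The order differed between the cell types. Nefh was at 0.279 ± 0.559 CPM per kb in ChC and 34.6 ± 22.5 in Pv (SD, n = 4 batches each), below Map1a in ChC (17.4 ± 8.70) and above it in Pv (19.1 ± 6.26), though within the spread of the Pv batches. In ChC Nefh was the lowest of the 10, with Nefl next at 0.596 ± 0.696. Nefm was at 3.66 ± 6.55 in ChC and 23.6 ± 24.8 in Pv, also above Map1a there but within its own spread. Map1b was at 17.8 ± 8.38 CPM per kb in ChC, level with Map1a, and at 66.1 ± 19.2 in Pv, where its distance to Map2 (43.7 ± 23.9) was within the spread of Map2. Mapt (97.5 ± 7.24 and 98 ± 9.54) and Tubb3 (86.6 ± 24.7 and 107 ± 102) differed from each other by less than the spread of Tubb3 in both cell types, and Stmn2 (188 ± 172 and 168 ± 147) led both with a spread that reached them. With TMM scaling, Map1a (18.4 and 18) and Mapt (103 and 93.9) were slightly higher in ChC, where without it they were slightly higher in Pv. Since each molecule is counted once at its poly(A) end whatever its length, the division itself lowers long transcripts such as Map1b. Without it, the mean levels were 512 CPM for Mapt, 391 CPM for Map2 and 211 CPM for Map1b in ChC, and 515, 273 and 783 CPM in Pv.

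Variation over the cells of a batch was measured as the chi-square of a gene's UMI given the totals of the cells, per degree of freedom, where sampling of molecules alone gives 1. It was computed for genes with at least 100 UMI in a batch. Mapt had a median of 0.614 over 8 batches, at the 6.54th percentile of such genes, although it reached 2.36 in one batch. Map2 (0.846 over 7 batches), Tubb3 (0.924 over 4), Map1b (0.945 over 7) and Stmn2 (1.11 over 5) also had medians below those of all genes in the same batches (1.19 to 1.21). The summing of rows raises these medians of all genes. From 1 row per gene, a setting chosen after the data were seen, they were 1.04 to 1.05, and Mapt, Map2, Tubb3 and Map1b stayed below while Stmn2 (1.11, at the 55.8th percentile) lay above. Map1a had 2.07 with its rows summed and 0.993 from 1 row. Nefh (1.54) and Nefm (1.47) could be measured only in Pv batch 8 and lay above the median of all genes there. Nefl and Ina had too few molecules in every batch.

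Over the cells of a batch, no pair of the more abundant members had the same sign of correlation in all 8 batches. For the 6 members seen in 50% or more of the cells in each batch (Tubb3, Map1a, Map1b, Map2, Mapt and Stmn2), Spearman correlations of cell CPM were taken over the 10 to 16 cells with at least 10000 UMI in a batch. The 15 pairs had median correlations over the 8 batches between -0.209 and 0.236, where 90% of the 1076778 pairs of 1468 equally frequent genes lay between -0.211 and 0.223. Tubb3 with Map1b was the highest pair and Tubb3 with Stmn2 the lowest, and each had both signs among the batches. With thinned cells, Tubb3 and Map1b were positively correlated in 8 of 8 batches (median 0.276). Nefm with Nefh could be correlated in 3 batches, with a median of 0.271 and a range of -0.321 to 0.741.

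The 5 genes of these 1468 with the highest mean correlation with the summed Nefl, Nefm and Nefh were Arl15 (0.356, positive in 8 of 8 batches), Arfgef2 (0.330), Tmem59l (0.318), Ndufb2 (0.315) and Ptov1 (0.302), the last 4 positive in 7 of 8 batches. The triplet sum rested on 4, 27, 5 and 2 molecules in the ChC batches and 23, 91, 72 and 338 in the Pv batches. The correlations in ChC therefore turn on a few cells. Over the 1468 genes the median of this mean correlation was 0.00692. The 5 genes were picked as the highest of them, so their high values and shared signs follow at least in part from that choice. All 5 correlations are a description only.

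Other cytoskeletal genes gave no call by edgeR, whose counts over all genes are given above. Of 9 genes of intermediate filaments and their linkers, 6 had counts. Peripherin (Prph) and nestin (Nes) were at 0 and vimentin (Vim) at 1 molecule. Synemin (Synm), an intermediate filament protein, had 52 molecules and was at 2.14, 72.8, 0 and 2.35 CPM in ChC and at 0 in every Pv batch. These 4 were named after their values were seen. The linker dystonin (Dst) averaged 469.7 ± 103 CPM in ChC and 503 ± 249 CPM in Pv (SD, n = 4 each). The tubulins (11 tested) had a median log2 fold change of -0.08 and the other microtubule-associated and end-binding proteins (27 tested) of 0.09, against 0.04 over all 9829 genes. Their most counted genes, Tuba1a (1614 ± 595 and 1138 ± 699 CPM) and Dclk1 (698 ± 77.4 and 1173 ± 937 CPM), overlapped between ChC and Pv. From 1 row per gene, Dclk1 averaged 365 and 640.0 CPM and Map4 (as Mtap4) was the most counted of its list instead. Reads of Tuba1a may be shared with its close copies Tuba1b and Tuba1c.

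The other stathmins, relatives of Stmn2 with the same tubulin-binding domain, had a median of -0.86 over 3 genes. Stmn3 averaged 733 ± 185 CPM in ChC and 1142 ± 596 CPM in Pv. Stmn1 lay at 51.5, 124, 49.8 and 117 CPM in ChC and at 265, 1227, 309 and 375 CPM in Pv, and was named after its values were seen as the list's one gene without overlap (adjusted p = 0.598 in edgeR). The 12 kinases and phosphatase subunits that act on tau and neurofilaments had a median of 0.17, with Ppp2r2b at 1314 ± 394 and 599 ± 358 CPM (781 and 371 CPM from 1 row). Mark2, also named after its values were seen, was that list's one gene without overlap, at 85.8, 253, 122 and 140.0 CPM in ChC and at 25.4, 31.4, 78.1 and 58 CPM in Pv (adjusted p = 0.889 in edgeR). The 21 motors had a median of -0.05, with Dynll2 at 1804 ± 637 and 1294 ± 383 CPM (706 and 503 CPM from 1 row, where Dync1h1 was the most counted), and the actin and spectrin genes (8 tested) a median of 0.25, with Tmsb4x at 8637 ± 2762 and 6019 ± 4027 CPM. Beside the members, then, 85 genes of these lists were tested by edgeR and none passed.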

How the data were processed

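Single cells were amplified linearly from poly(A) RNA with varietal tags. Reads primed at poly(A) were aligned by the authors to mm9 (Bowtie 0.12.7), tags were counted once per gene, and the counts per transcript and cell were deposited by the authors without normalization. Of 128 cells, 126 had counts. Here the 27207 transcript rows were summed per gene name; of 2229 genes with several rows and counts, 883 had identical rows, and summed totals were 1.17 times those from 1 row per gene.

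ChC and Pv were compared with edgeR 4.0.16 (R 4.3.3; quasi-likelihood, TMM, filterByExpr, Benjamini-Hochberg over all genes, threshold 0.05) on UMI summed per animal, 2 against 2, and alternatively with DESeq2 1.42.0, without the filter, on batches, on 1 row per gene, on cells with at least 10000 UMI, on thinned cells and without each animal or batch. The tests were tried on simulated counts. Intervals (95%) and the 3-count limit for 0 cover counting error only, and depth per batch sets them. Shares, correlations and dispersions used Python 3.11.15, numpy 2.4.6, scipy 1.17.1 and pandas 2.3.3. Ends were compared with GENCODE vM1 on NCBIM37, the assembly of mm9, leaving out putative transcripts. Genes named are the members, the most counted gene of each list, the 5 most correlated with the neurofilament triplet, 4 label checks, cell type markers, and genes named after their values were seen, which the text marks. The members and lists were chosen with earlier results of these data known. One cell type marker is not reported here.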

Additional observations from a re-analysis of the deposited data

Results flagged for a closer look

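In 20 groups of 4 batches (10 genes in ChC and in Pv), 3 had a batch whose distance to the nearest other batch, relative to the range of the group, exceeded Dixon's 95% critical value for 4 samples. For 4 independent normal values chance gives about 1 such group in 20. The batches here are paired by animal and some groups lie mostly at or near 0. That rate need not hold for them, and the 3 groups are not shown to be an excess. Nefm in ChC batch 2, at 37.9 CPM, stood apart from the 1.89 CPM or less of the other ChC batches. Nefh in ChC batch 1, at 4.29 CPM, stood apart from 3 batches at 0, where any count in the remaining batch would do so. Without TMM scaling its 2 molecules were at 3.79 CPM, under the 5.68 CPM that 3 counts make in that batch. Tubb3 in Pv batch 5, at 438 CPM, stood apart from Pv batches 6 to 8, the highest of which was at 88.1 CPM. The causes were not tested.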

How the results depend on the processing

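The count of genes called by edgeR with animals as samples, 0 (616 at an unadjusted p under 0.05), was 150 by DESeq2, 80 without the filter, 5 with batches as samples and 1 with cells thinned to 10000 UMI. It stayed 0 with 1 row per gene and with cells of at least 10000 UMI. It ranged from 0 to 100 when an animal or a batch was left out, with 17, 51, 7 and 100 calls without animals 1 to 4, where the lone animal of a cell type is assumed to vary like the others, and 1 call without Pv batch 7. Nefh was called by DESeq2 and without the filter, and no other member by any alternative. The number of genes without overlap between batches was 311, 308 without TMM scaling and 307 with 1 row per gene.

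Nefl, Nefm, Nefh, Ina, Map1b and Map2 kept the sign of their log2 fold change in all alternatives that could test them. Nefm ranged from -6.04 without ChC batch 2 to -1.74 without Pv batch 8. The fold changes near 0 did not keep their sign. Map1a turned to -0.05 with batches as samples and ranged from -0.70 to 0.55 without an animal or batch, Mapt turned to -0.07 with thinned cells and ranged from -0.12 to 0.26, and Stmn2 turned to 0.18 with batches as samples and 0.49 with thinned cells and ranged from -0.70 to 1.07. Tubb3 ranged from -1.01 to 0.72. The cause was not tested.

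No paired analysis was possible because the batch numbers of ChC and Pv do not overlap, and the lane numbers they share belong to different flow cells. Of 294 alternatives for mean levels 287 moved by less than the SD over batches, as did all 165 for correlations. Depth limits the shares of cells. That of Pv cells with Nefh was 41% at 5000, 67.8% at 10000 and 76.2% without thinning, and that with Tubb3 was 44.3%, 72.9% and 87.3%.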
